A study of Mus musculus with 19 samples.

Results

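The ribosome biogenesis genes examined here are 36 genes chosen by name, and 34 of them had at least one row in the deposited lists of translated open reading frames (ORFs), out of 7384 genes with a row in any list. Fbl and Wdr12 had no row and were not measured. For the 34 genes the counts of all their listed transcripts were summed and compared between tumour and normal organoids in ribosome footprints, in RNA and in the ratio of both. Because a gene entered only through a listed ORF, 20 of the 34 came in through lists of both organoid types and 14 through lists of the tumour organoids alone (41.2%, against 56.7% of all listed genes).

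The series compared organoids of alveolar type 2 (AT2) cells, the surfactant-making stem cells of the lung's air sacs, with organoids of lung adenocarcinoma (LUAD), all from C57BL/6 mice. Organoids were grown in lung organoid medium, plated for 48 hours on Matrigel-washed plates and given 100 µM cycloheximide, which halts translating ribosomes, for 5 min. There were 3 AT2 and 4 LUAD footprint libraries, 3 AT2 and 4 LUAD RNA libraries, and ORF lists of 2 AT2 and 3 LUAD samples, the latter titled KP. Footprints were isolated with RiboLace, a pull-down of translating ribosomes, and the RNA libraries carry the same extraction text, so their own preparation is not stated in the labels. Nor do the labels used here state the tumour genotype or the age of the animals. The design text speaks of 2 AT2 cultures and 3 tumour organoids, and nothing states that the footprint or RNA libraries came from separate cultures, so the p-values measure only the spread between libraries, which may be technical.

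Ribosomes are built in the nucleolus. RNA polymerase I transcribes a long precursor of the ribosomal RNAs, small nucleolar ribonucleoproteins (snoRNPs) guide its chemical modification, and a large early particle, the small subunit (SSU) processome, folds and cuts it. Separate sets of factors then mature the small and the large subunit, and many of these genes are known targets of the transcription factor MYC, whose demand for ribosomes accompanies growth and division.

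Levels below are CPM, counts per 1e6 counts assigned to listed genes after TMM scaling, which matches libraries on the bulk of their genes. TPM, which also accounts for transcript length, is used to compare one gene with another. A gene was called when the adjusted p (Benjamini-Hochberg, edgeR quasi-likelihood test over all genes) was under 0.05. In units of 1e6 estimated counts, footprint libraries held 3.03 to 14.3 and RNA libraries 4.12 to 33.2. The AT2 label held in these libraries. Of 10 AT2 markers 7 were measured and 6 tested. In RNA 5 of the 6, Nkx2-1 and Sftpb among them, were lower in LUAD, against 18% of all genes. Summed RNA of the 7 was 1637 to 3211 CPM in AT2 and 236 to 265 in LUAD.

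AT2 footprint library 1 stood apart before any comparison. A single gene, Mettl26, held 52.1% of its counts assigned to listed genes. On the same base it held 4.14% and 1.99% in the other AT2 footprint libraries and at most 1.37% in LUAD. The ribosome biogenesis genes together stood at 3731 CPM of footprints in it, and at 10580 and 10430 in AT2 footprint libraries 2 and 3. It was the lowest AT2 footprint library for 31 of the 33 members tested (93.9%, against 42.2% of all genes), with a median of 0.369 times the mean of the other AT2 libraries (0.974 times over all genes). Results on footprints are therefore given with and without it.

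Promoters were read for 31 of the 36 genes from RefSeq sequences on GRCm38.p6, the build also called mm10, in the 250 bases before the listed start. The E-box CACGTG, the site that MYC with its partner MAX prefers and the same on both strands, was present in 2 of 31 members (6.5%), and in 6.0% of the 27025 genes of the table. Both are shown here because they were the only matches, with the E-box in capitals; the first lies 20 and the second 60 bases before the start. They come from the minus strand at chr11:93885767-93885813 (Utp18) and the plus strand at chr6:125131796-125131855 (Nop2).
Utp18: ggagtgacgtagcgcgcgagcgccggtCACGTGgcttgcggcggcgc
Nop2: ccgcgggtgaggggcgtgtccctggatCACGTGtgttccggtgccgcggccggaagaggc
Utp18 RNA rose in LUAD and Nop2 RNA did not pass the test, as given below. Of the 5 other motifs searched on both strands, GGGCGG was held by 23 members (74.2%, 32.9% of all genes), CCAAT by 10 (32.3% and 34.5%), CANNTG, which takes in the E-box, by 12 (38.7% and 66.0%), and TATAAA and CCATNTT by 2 each (6.5%, against 13% and 12.5%). The members' windows had a median GC content of 60% against 52% over all genes. These matches describe letters in one window and say nothing of factor binding.

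In RNA the ribosome biogenesis genes stood higher in LUAD organoids across nearly every stage of the pathway. Of 34 members tested, 22 rose, 0 fell and 12 did not pass, where 19% of the 6942 genes tested rose and 18% fell. The median log2 fold change was 1.0 over the members and 0.04 over all genes. Scaling on all transcripts gave 1.18 and 0.20, with 1795 genes higher and 912 lower in place of 1322 and 1250, and 26 members higher. LUAD and AT2 libraries did not overlap, with LUAD higher, for 23 members (24.3% of all genes), and with LUAD lower for 0 (21.1%). Among the 20 members listed in both organoid types 12 rose, and among the 14 listed only in LUAD 10 rose. The 14 passed the listing filter through LUAD alone, which can favour genes high in LUAD, so their count is not separate support. Calls over all genes were not counted by entry, so neither count has a matching background.

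**Figure D1:**
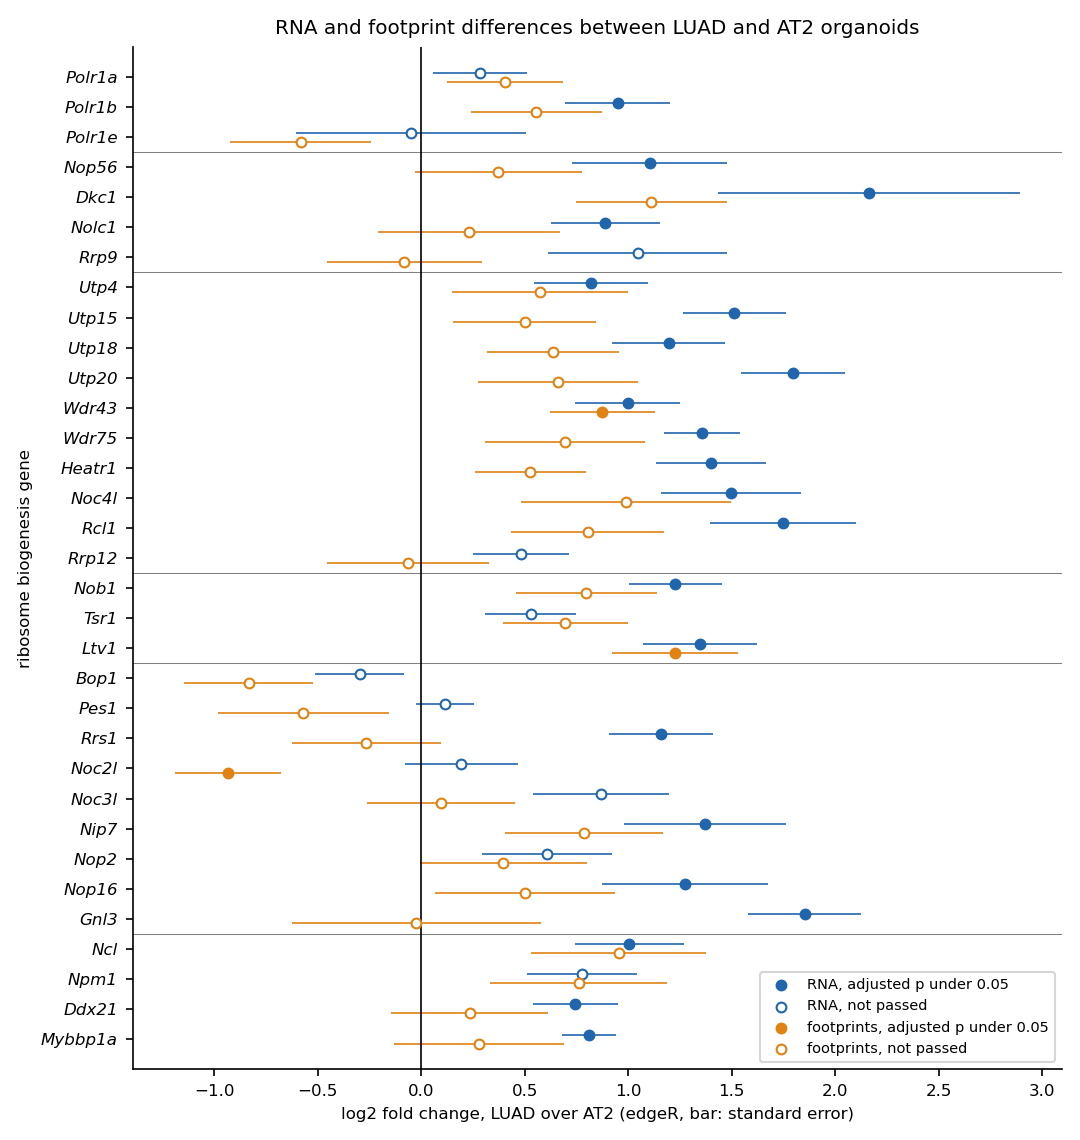
Log2 fold change of LUAD over AT2 (horizontal axis, edgeR, bars: standard error) for 33 ribosome biogenesis genes in RNA (blue) and footprints (orange), grouped by role between grey lines; filled points passed an adjusted p of 0.05. 22 RNA points are filled to the right of 0, while 2 footprint points are filled to the right and 1, Noc2l, to the left.

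Summed over the members, RNA reached 4301, 4251 and 7526 CPM in AT2 libraries 1 to 3, against 8260, 8473, 10980 and 11720 CPM in LUAD libraries 1 to 4. All 4 LUAD libraries lay above all 3 AT2 libraries, and AT2 library 3 lay nearest to LUAD. Without Ncl and Npm1, the 2 most abundant members, the sums were 1746, 1673 and 2785 CPM in AT2 and 3206, 3273, 4374 and 4668 CPM in LUAD, again with no overlap. The members also moved together between libraries of one group: AT2 RNA library 3 was the highest AT2 library for 30 of 34 members (88.2%, against 40.9% of all genes), and LUAD RNA libraries 3 and 4 both exceeded 1 and 2 for 29 (85.3%, against 37.8%).

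**Figure D2:**
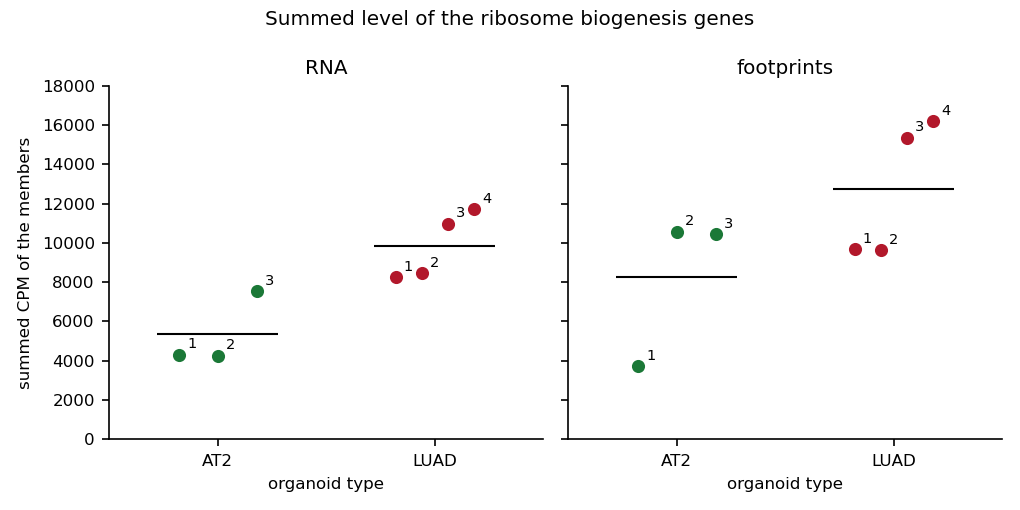
Summed CPM of the members (vertical axis, from 0) in each RNA library (left) and footprint library (right); numbers are the replicate numbers in the labels and lines are group means. RNA runs from 4251 to 7526 CPM in AT2 and from 8260 to 11720 in LUAD, and AT2 footprint library 1 lies alone at 3731.

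The 3 RNA polymerase I subunits were split. Polr1b, which forms the catalytic cleft with Polr1a, rose from 30.2, 16.7 and 31.4 CPM in AT2 to 47.9, 46.1, 55.3 and 50.9 CPM in LUAD, without overlap (log2 fold change 0.95 ± 0.25, SE; edgeR adjusted p = 0.020). Polr1a, the largest subunit, stood at 20.9, 18.9 and 29.1 CPM in AT2 and 31.3, 28.3, 26.5 and 25.0 in LUAD, and the groups overlapped (0.28, adjusted p = 0.36). Polr1e, a dissociable subunit, had a log2 fold change of -0.05 (adjusted p = 0.95).

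Among the snoRNP proteins 3 of 5 measured rose. Dkc1, the pseudouridine synthase of the H/ACA class, had the largest RNA change of the members with all libraries in the fit: 16.1, 6.91 and 62.8 CPM in AT2 and 77.7, 70.0, 175 and 167 CPM in LUAD. The groups did not overlap, but AT2 library 3 lay close to LUAD 1 and 2 (log2 fold change 2.16 ± 0.73, edgeR adjusted p = 0.048). The change of Dkc1 was 3.42 without AT2 RNA library 3 and 1.67 without AT2 RNA library 2, below Utp20 (1.76) in that fit, and the call was lost on leaving out any library but AT2 3 (adjusted p = 0.055 to 0.15). The box C/D core protein gene Nop56 rose by 1.1 (adjusted p = 0.048) and Nolc1, a snoRNP chaperone, by 0.89 (adjusted p = 0.031). The calls of Dkc1 and Nop56 were lost when only transcripts with an annotated ORF were summed, at adjusted p = 0.054 and 0.061 with log2 fold changes of 2.13 and 1.09. Rrp9, a protein of the U3 snoRNP, did not pass (1.05, adjusted p = 0.089), although it did with replicate number as a block (adjusted p = 0.012). No label states that equal numbers pair an AT2 with a LUAD library. Fits with this block, here and below, assume such a pairing. Nop58 cannot be read here: its 5 listed transcripts included 0 protein-coding ones, and its RNA lay between 0 and 3.10 CPM.

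The SSU processome and early small-subunit factors moved most uniformly, with 9 of 10 rising and a median log2 fold change of 1.38. Utp20, a long scaffold protein of the pre-ribosome, stood at 9.13, 9.67 and 12 CPM in AT2 and at 42.0, 39.7, 27.7 and 32.1 CPM in LUAD. The groups lay far apart, and LUAD 1 and 2 were the highest (log2 fold change 1.80 ± 0.25, edgeR adjusted p = 0.0013). Rcl1, an essential factor in cleavage of the precursor, stood at 20.2, 22.4 and 49.3 CPM in AT2 and at 77.9, 87.1, 117 and 121 CPM in LUAD, with no overlap (1.75, adjusted p = 0.0066). Utp15, Wdr75, Heatr1, Wdr43 and Utp4 belong to the subcomplex that joins the precursor first and is tied to its transcription. They rose by 1.51, 1.36, 1.4, 1.0 and 0.82, with adjusted p between 0.0011 and 0.047. Heatr1 RNA stood at 15.3, 11.5 and 22.1 CPM in AT2 and at 44.2, 45.4, 35.1 and 44.6 CPM in LUAD. Noc4l rose by 1.5 and Utp18 by 1.20, both with no overlap. Rrp12 was the exception, at 16.1, 18.6 and 18.6 CPM in AT2 and 22.9, 21.6, 23.8 and 30.9 CPM in LUAD. Its groups did not overlap either, but the difference did not pass (0.48, adjusted p = 0.13).

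Of the 3 late small-subunit factors 2 rose. Ltv1, which accompanies the pre-40S particle to the cytoplasm, stood at 53.0, 45.3 and 63.2 CPM in AT2 and 96.8, 104, 158 and 187 CPM in LUAD (log2 fold change 1.35 ± 0.28, edgeR adjusted p = 0.0070). Nob1, the endonuclease that makes the final cut of the small-subunit rRNA, stood at 46.0, 36 and 43.5 CPM in AT2 and 74.3, 84.5, 113 and 120 CPM in LUAD (1.23, adjusted p = 0.0043). For both, each LUAD library exceeded each AT2 library. Tsr1 did not pass (0.53, adjusted p = 0.090), but did with the replicate block (adjusted p = 0.049).

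Large-subunit assembly factors were the most mixed, with 4 of 9 measured rising. Gnl3, nucleostemin, a nucleolar GTPase abundant in stem and tumour cells, stood at 51.9, 53.9 and 96.2 CPM in AT2 and 196, 212, 275 and 282 CPM in LUAD. All LUAD libraries lay far above all AT2 libraries, and only Dkc1 had a larger change among the members with all libraries in the fit (log2 fold change 1.85 ± 0.27, edgeR adjusted p = 0.0016). Nip7, Nop16 and Rrs1, which acts with the particle that holds the smallest large-subunit rRNA, rose by 1.37, 1.28 and 1.16 (adjusted p = 0.026, 0.038 and 0.0089). Bop1 and Pes1, partners in the PeBoW complex of which Wdr12 is the other member, did not pass. Bop1 stood at 167, 152 and 228 CPM in AT2 and 134, 114, 165 and 180 CPM in LUAD, with overlap (-0.30, adjusted p = 0.31), and passed as lower with the replicate block (-0.40, adjusted p = 0.042). Pes1 stood between 144 and 150 CPM in AT2 and between 144 and 176 CPM in LUAD. Noc2l (0.19), Noc3l (0.87) and Nop2 (0.61), the latter an rRNA methyltransferase, also did not pass, and Noc3l did with the block (adjusted p = 0.031).

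Of the 4 nucleolar proteins with several roles 3 rose, and Npm1 and Ncl among them were the most abundant members per length. Npm1, nucleophosmin, had a mean of 1220 TPM in AT2 and 1980 TPM in LUAD, and Ncl, nucleolin, 273 and 495 TPM, while the median member stood at 19.2 and 37.8 TPM. Ncl RNA rose from 955, 977 and 1539 CPM in AT2 to 1821, 1810, 2655 and 3006 CPM in LUAD, without overlap (log2 fold change 1.01 ± 0.26, edgeR adjusted p = 0.019). Npm1 stood at 1600, 1602 and 3202 CPM in AT2 and 3233, 3389, 3954 and 4042 CPM in LUAD; AT2 library 3 reached almost the level of LUAD 1, and the difference missed the threshold (0.78, adjusted p = 0.051; 0.022 with the block). Npm1 is known to have processed pseudogenes; whether reads were shared with them was not tested, so its counts are uncertain. The helicase gene Ddx21 rose by 0.74 (adjusted p = 0.023). Mybbp1a, a nucleolar MYB-binding protein, had the smallest standard error of the members: 132, 137 and 139 CPM in AT2 and 250, 235, 226 and 243 CPM in LUAD (0.81 ± 0.13, adjusted p = 0.0023).

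The RNA calls rested in part on single libraries. The number of members called fell to 13 without AT2 RNA library 1 and to 13 without AT2 RNA library 2, fell to 14 without LUAD library 3 or without LUAD library 4, and reached 27 without AT2 RNA library 3. Gnl3, Utp20, Rcl1, Utp15, Noc4l, Heatr1, Wdr75, Ltv1, Nob1, Utp18, Rrs1 and Mybbp1a, 12 of the 22, kept their call in every alternative run for RNA.

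**Figure D3:**
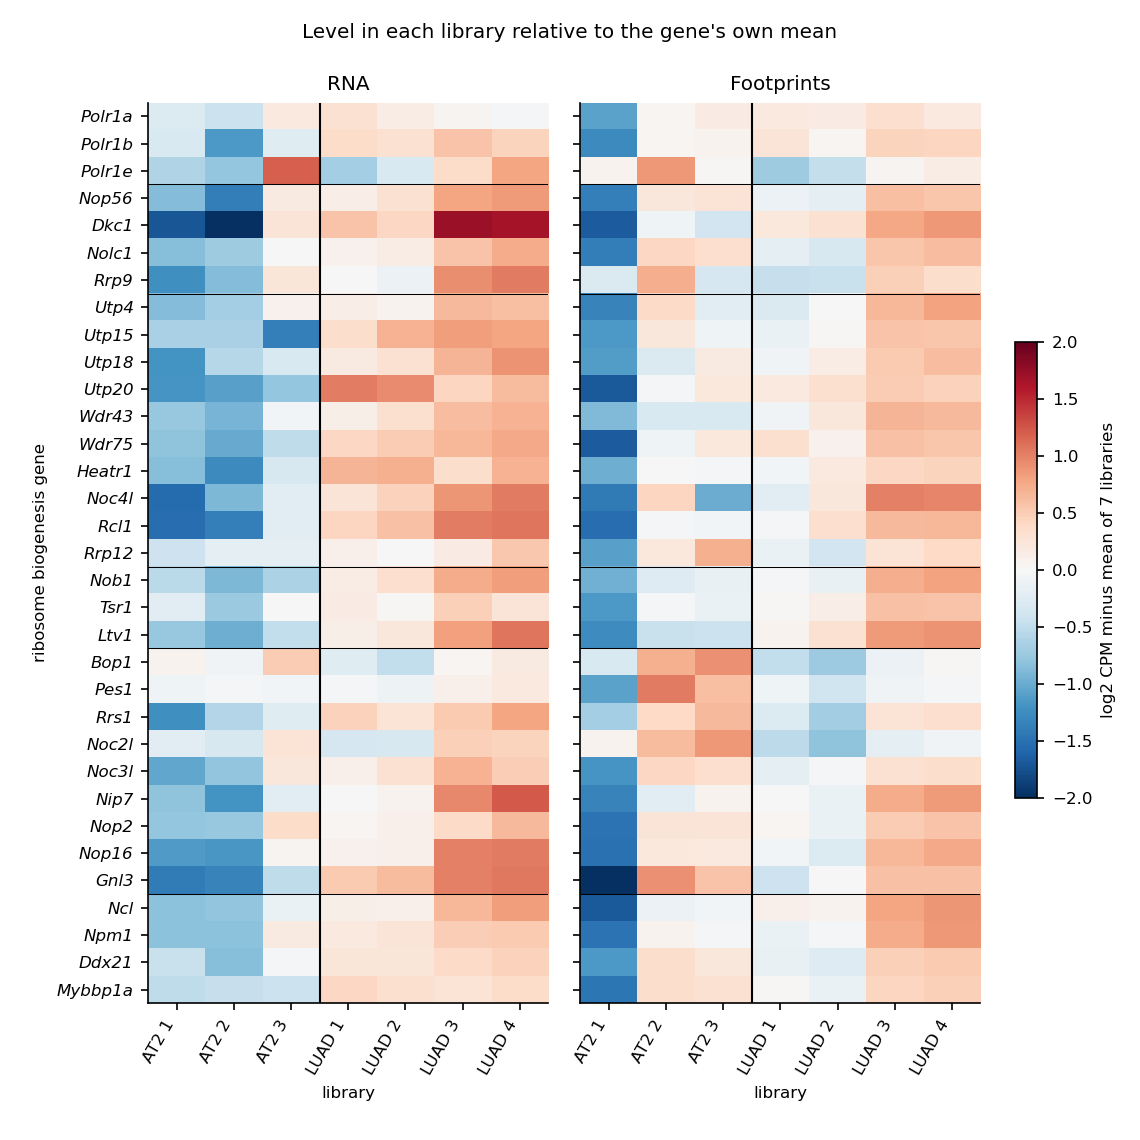
Log2 CPM of 33 ribosome biogenesis genes in each library minus the gene's mean over the 7 libraries of that assay, for RNA (left) and footprints (right); rows are grouped by role and the vertical line separates AT2 from LUAD. RNA is low in AT2 1 and 2 and high in LUAD 3 and 4 for most genes, and in footprints AT2 1 is the lowest AT2 library for 31 of 33.

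Footprints, which count ribosomes on these transcripts, gave far fewer calls. Of 33 members tested 2 rose, 1 fell and 30 did not pass, against 9.47% of 6814 genes higher and 11.8% lower; 7 members had an unadjusted p under 0.05. The median log2 fold change was 0.50, and -0.02 over all genes; scaled on all transcripts it was 0.67 and 0.15 (866 genes higher, 612 lower, in place of 645 and 803), and on log2(TPM + 1) 1.09 and 0.61 (833 and 144). Under both of these scalings 3 members were higher and 0 lower. LUAD lay wholly above AT2 for 7 members (18.4% of all genes) and wholly below for 1 (17.3%). Summed over the members, footprints stood at 9681, 9638, 15370 and 16210 CPM in LUAD, so LUAD 1 and 2 lay below AT2 2 and 3. LUAD footprint libraries 3 and 4 both exceeded 1 and 2 for 32 of 33 members (97.0%, against 37.2% of all genes).

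The late small-subunit factor Ltv1 rose in footprints, at 34.7, 60.8 and 62.0 CPM in AT2 and 87.3, 103, 150 and 155 CPM in LUAD. No LUAD library reached down to AT2 (log2 fold change 1.23 ± 0.30, edgeR adjusted p = 0.025). Wdr43 rose from 101, 149 and 149 CPM to 176, 216, 296 and 288 CPM (0.87 ± 0.25, adjusted p = 0.043), and lost its call with annotated-ORF transcripts alone (0.57, adjusted p = 0.15). In the large-subunit factor Noc2l, footprints fell from 126, 187 and 220 CPM to 84.0, 68.7, 106 and 114 CPM (-0.93 ± 0.26, adjusted p = 0.036), while its RNA did not pass. Every AT2 library was above every LUAD library for Noc2l, AT2 1 included, and it lost its call under both other scalings.

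By stage, footprints of late small-subunit factors were higher in every LUAD library than in any AT2 library for all 3 genes, though only Ltv1 passed. They were among 7 of 33 members so placed, near the share of all genes (18.4%), and a difference between stages was not tested. Nob1 stood at 20.5, 33.5 and 35.9 CPM in AT2 and 39.3, 36, 65.6 and 69.6 CPM in LUAD (0.80, edgeR adjusted p = 0.14), and the gap between the groups was far smaller than the spread within them. Tsr1 stood at 33.8, 73.6 and 68.8 CPM in AT2 and 76.9, 82.9, 113 and 112 CPM in LUAD (0.70, adjusted p = 0.14). Among the 10 SSU processome and early small-subunit factors Wdr43 alone passed, with a median of 0.65. Dkc1 was the snoRNP gene whose groups did not overlap, at 21.3, 63.7 and 52.2 CPM in AT2 and 78.6, 83.5, 116 and 124 CPM in LUAD (1.11, adjusted p = 0.067). The 9 large-subunit factors measured had a median of -0.02, with 4 positive and 5 negative, and Rrs1, which rose in RNA, stood at 72.0, 152 and 180 CPM in AT2 and 95.9, 71.0, 139 and 145 CPM in LUAD footprints (-0.27, adjusted p = 0.65).

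Nucleolin carried the most footprints after nucleophosmin on the TPM scale, at 656 ± 443 TPM (SD, n = 3) in AT2 and 1310 ± 227 TPM (SD, n = 4) in LUAD; Npm1 had 996 ± 713 and 2060 ± 525 TPM. In CPM, Ncl stood at 1154, 3412 and 3547 in AT2 and 3968, 3868, 6358 and 6761 in LUAD, apart but with LUAD 1 and 2 close to AT2 2 and 3 (0.95 ± 0.42, edgeR adjusted p = 0.15). Npm1 stood at 728, 2107 and 1967 CPM in AT2 and 1838, 1958, 3366 and 3686 CPM in LUAD, with overlap (0.76, adjusted p = 0.25). Mybbp1a footprints, at 181, 634 and 607 CPM in AT2 and 504, 450, 666 and 686 CPM in LUAD, overlapped as well (0.28, adjusted p = 0.67), although its RNA had separated the groups. The genes on which these comparisons turn lie apart in the genome: on GRCm38.p6, RefSeq places Ltv1 on chromosome 10 from 13178597 to 13193137, Noc2l on chromosome 4 from 156234655 to 156247616, Gnl3 on chromosome 14 from 31012433 to 31019131, and Utp20 on chromosome 10 from 88746607 to 88826814.

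**Figure D4:**
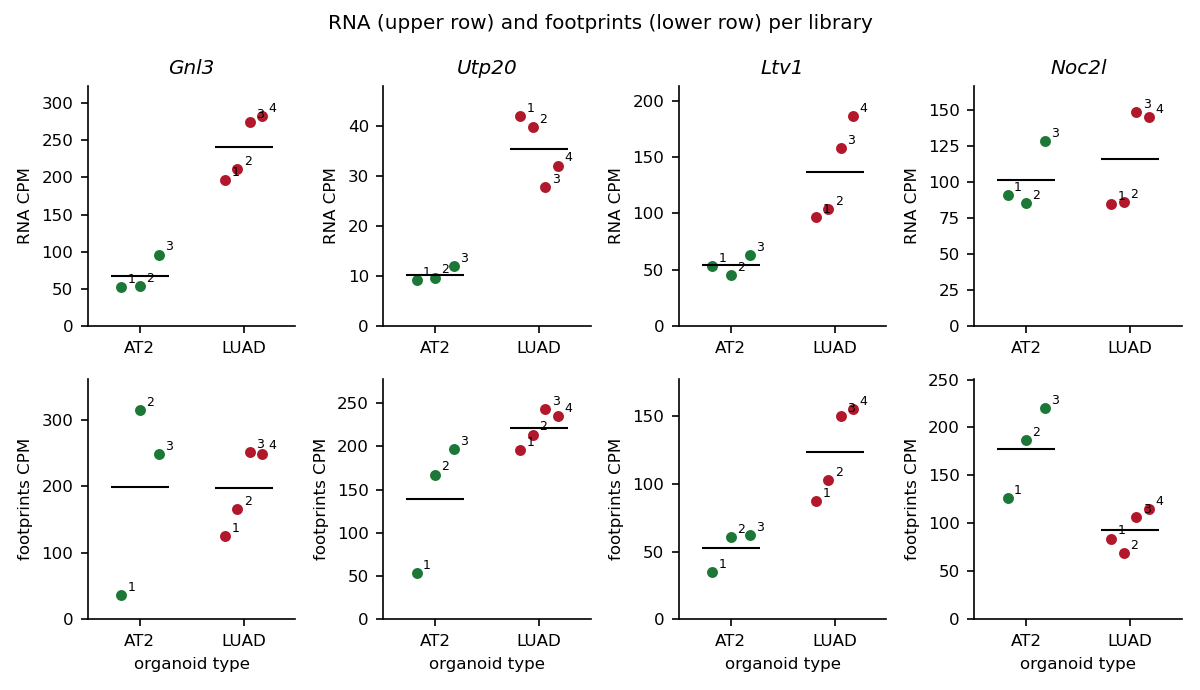
CPM of Gnl3, Utp20, Ltv1 and Noc2l in each RNA library (upper row) and footprint library (lower row), from 0, with replicate numbers and group means as lines. For Gnl3 the RNA groups are apart, 51.9 to 96.2 CPM against 196 to 282 CPM, while footprints of AT2 2 and 3 lie at 314 and 248 CPM beside LUAD.

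Without AT2 footprint library 1, 1 member was higher (Ltv1) and 3 were lower, against 13.3% and 13.9% of 6967 genes, and the members' median fell to 0.18. The 3 lower ones were large-subunit factors: Noc2l (-1.13, edgeR adjusted p = 0.013), Bop1 (-1.12, adjusted p = 0.013) and Pes1 (-0.97, adjusted p = 0.0097). Bop1 footprints stood at 107, 215 and 249 CPM in AT2 and at 93.6, 80.0, 122 and 133 CPM in LUAD. For Pes1 they stood at 86.3, 370 and 275 CPM in AT2 and at 172, 137, 173 and 179 CPM in LUAD. In both genes only AT2 1 reached the LUAD range or lay below it. Since AT2 1 was the lowest AT2 footprint library for 31 of 33 members, leaving it out by itself lowers their fold changes. The footprint call count was 0 without LUAD library 3 or without LUAD library 4, and 1 without AT2 library 2, without AT2 library 3 or without LUAD library 2.

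The footprint libraries fell into 2 sets by their spread, AT2 1 with LUAD 1 and 2, and AT2 2 and 3 with LUAD 3 and 4; these sets were read from the data and are not in the labels. With the set as a term in the fit, 20 members were higher and 2 lower, where 20.7% of genes were higher and 21.4% lower, and the members' median was 0.68. In set 2 alone, with 2 libraries a group, 18 members were higher and 3 lower, against 20.4% and 21.3% of 6842 genes, and the median was 0.39. There Ncl gave 0.92, Npm1 0.79 and Ltv1 1.32, and Bop1, Pes1 and Noc2l were again lower at -0.86, -0.87 and -0.88. Because the sets were chosen from these same counts, the calls of both fits are no separate test of the members. Libraries within a set are alike by that choice, so the spread is small in advance. RNA libraries were split otherwise, with AT2 1 and 2 and LUAD 1 and 2 as set 1, and AT2 3 and LUAD 3 and 4 as set 2. What the sets stand for was not tested.

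The ratio of footprints to RNA asks whether ribosome occupancy per transcript differed. None of the 34 members passed in either direction (0 by edgeR and 0 by DESeq2; 4 and 6 with an unadjusted p under 0.05, the 4 all lower in LUAD), where 0.282% of 7083 genes were higher and 0.438% lower. The members' median log2 difference was -0.49, and 0.01 over all genes, and 30 of 34 were negative. The sign depended on scaling: the median was -0.22 when libraries were scaled on all transcripts (all genes 0.28) and 0.27 on log2(TPM + 1) (all genes 0.61), where 4 and 18 members changed sign. The members' median was below that of all genes under each.

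Gnl3 had the most negative difference of the members apart from Nop58, which cannot be read. Its footprints stood at 35.6, 314 and 248 CPM in AT2 and 125, 165, 251 and 249 CPM in LUAD, so AT2 2 lay above all 4 LUAD libraries and AT2 3 above LUAD 1 and 2, whereas in RNA every AT2 library was below every LUAD library. Footprints per RNA of Gnl3, from the group means, were 2.96 in AT2 and 0.818 in LUAD (log2 difference -1.80 ± 0.71, edgeR adjusted p = 0.27). Rrs1 had 2.29 and 0.864 (-1.35 ± 0.47, adjusted p = 0.20), Utp20 13.5 and 6.28 (-1.07 ± 0.47, adjusted p = 0.33), and Noc2l 1.75 and 0.806 (-1.05 ± 0.40, adjusted p = 0.24). Utp20 footprints were 53.4, 167 and 197 CPM in AT2 and 196, 214, 243 and 235 CPM in LUAD, with overlap, and did not pass (0.66, adjusted p = 0.27). The 4 positive differences were those of Tsr1 (0.24), Polr1a (0.20), Npm1 (0.06) and Ncl (0.02), and Ltv1 and Wdr43 were each at -0.04. With standard errors of 0.37 to 0.53 differences of that size could not be resolved, and without AT2 footprint library 1 all 6 were negative, from -0.38 for Ncl to -0.06 for Tsr1.

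Leaving out AT2 footprint library 1 and keeping all RNA libraries gave 7 members lower and moved the median to -0.87, where 3.02% of 7142 genes were lower. This fit was added after seeing the data. The library left out was the lowest AT2 footprint library for 31 of 33 members, so its removal by itself pushes their differences down. The calls are therefore no separate support for a lower ratio. Named by gene, the 7 follow. They were Gnl3 (-2.33 ± 0.41, edgeR adjusted p = 0.010), Utp20 (-1.48, adjusted p = 0.010), Pes1 (-1.04, adjusted p = 0.021), Rrs1 (-1.68, adjusted p = 0.031), Wdr75 (-0.99, adjusted p = 0.043), Mybbp1a (-0.88, adjusted p = 0.044) and Heatr1 (-1.10, adjusted p = 0.049). With the library set as a term for each assay Noc2l (-0.79, adjusted p = 0.013) and Rrs1 (-1.11, adjusted p = 0.025) were lower.

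**Figure D5:**
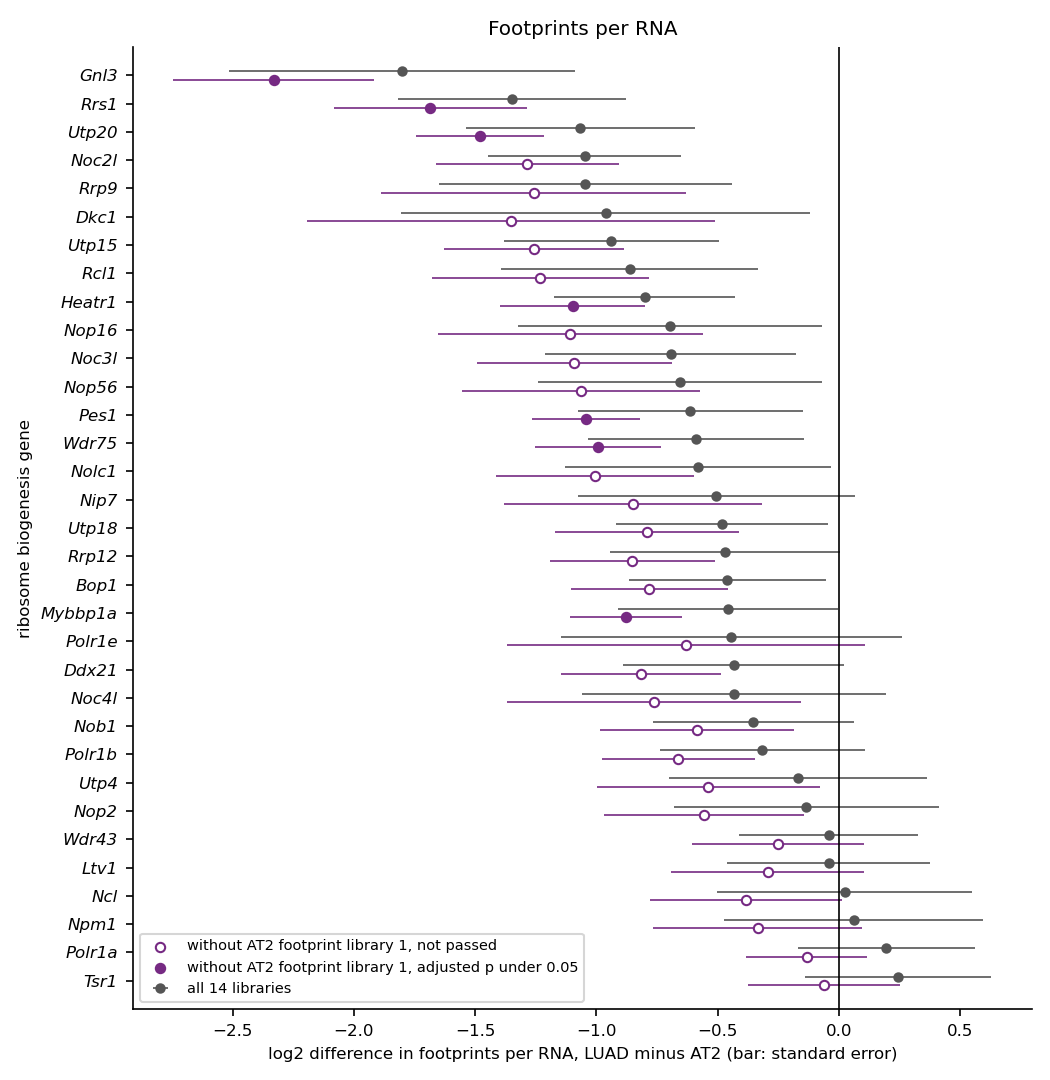
Log2 difference in footprints per RNA, LUAD minus AT2 (horizontal axis, bars: standard error), for 33 ribosome biogenesis genes over all 14 libraries (grey) and without AT2 footprint library 1 (purple; filled where the adjusted p is under 0.05). All grey points for large-subunit, snoRNP, and SSU processome and early small-subunit factors are left of 0, and 7 purple points are filled.

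In the ORF lists, which hold ORFs with an authors' p-value of at most 0.05 and are not tied by the labels to the footprint libraries, 7 and 17 members were named in the AT2 lists and 30, 22 and 21 in the LUAD lists. These lists held 1558 and 2167 genes in AT2 and 5215, 3649 and 2615 in LUAD, so members made up 0.449% and 0.784% of the listed genes in AT2 and 0.575%, 0.603% and 0.803% in LUAD, and the ranges overlapped. With at least 50 in-frame P-sites, the footprint positions at the ribosome's peptidyl site, the counts were 2 and 3 in AT2 and 28, 8 and 8 in LUAD. The Ncl coding sequence of 707 codons had 724 P-sites in AT2 list 2 and 8381, 826 and 1552 in the LUAD lists. The lists' total P-sites ran from 106021 to 262958 in AT2 and from 612997 to 4460404 in LUAD, so all LUAD lists were deeper than the AT2 lists, and the part of depth in these counts was not tested.

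The members' 124 distinct ORFs comprised 59 annotated coding sequences (47.6%, against 61.8% of all 21663 ORFs), 45 in the lists' class of unannotated ORFs (36.3% and 23.9%), 11 internal (8.9% and 5.5%), 6 downstream (4.8% and 4.8%) and 3 overlapping the end of the coding sequence (2.4% and 2.7%). Some share bases with the coding sequence of their gene: on a retained-intron transcript of Ncl, an ORF of 516 codons starting at the same base as the coding sequence had 6909 P-sites in LUAD list 1. In Nop16 a downstream ORF of 123 codons on a transcript subject to nonsense-mediated decay, on the minus strand of chromosome 13 from 54589713 to 54585281 (mm10), was listed in AT2 1 and in LUAD 1 and 2 with 23, 75 and 41 P-sites. It ends at the stop of the annotated 178-codon ORF, so their P-sites cannot be told apart where they overlap. Downstream ORFs of Tsr1 (655 codons), Polr1a (688) and Wdr43 (157), also on such transcripts, were listed in all 3 LUAD lists and in neither AT2 list. Those of Tsr1 and Wdr43 likewise end at the stop of an annotated ORF of their gene. For Tsr1 in LUAD list 1 the downstream ORF had 264 in-frame P-sites and the 803-codon annotated ORF 271. That of Polr1a ends at the same base as an unannotated ORF of 1012 codons. It lies between the start and the stop of the 1717-codon annotated ORF, so its P-sites are not shown to be its own. Within Mybbp1a an internal ORF of 61 codons was listed in AT2 list 1 with 18 P-sites and in LUAD list 1 with 202. Another of 63 codons was listed in both AT2 lists (41 and 10 P-sites) and in no LUAD list. However, LUAD list 1 held an ORF of 28 codons ending at the same base, on a retained-intron transcript, with 34 P-sites.

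Other genes of the pathway were also more often higher than lower in RNA. Of 177 further ribosome biogenesis genes, 133 were paired, and of 131 tested in RNA 50 rose and 3 fell, with a median of 0.73. The largest rises were in Rrp15 (2.34, edgeR adjusted p = 0.0074), Exosc8 (2.31, adjusted p = 0.0074), Lyar (1.88, adjusted p = 0.018) and Fcf1 (1.86, adjusted p = 0.00027), and the falls were in Rexo1 (-0.84), Gnl3l (-0.76) and Ddx47 (-0.65). Counted by stage, 3 of 12 Pol I factors, 7 of 15 snoRNP and modification factors, 16 of 40 small-subunit factors, 17 of 45 large-subunit factors and 7 of 20 trimming and exosome factors rose, where 19% of all genes did. In footprints, where 9.47% of all genes rose and 11.8% fell, 9 of 130 rose, Twistnb (1.48) and Dis3 (1.43) with the largest changes, and 4 fell, Zfp622 (-1.07), Rrp7a (-0.99), Exosc4 (-0.97) and Nol6 (-0.84). In the ratio 0 of 133 passed, with a median log2 difference of -0.26.

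Of the MYC network, 8 of 12 genes were paired. Myc RNA stood at 81.6, 85.1 and 156 CPM in AT2 and at 402, 443, 405 and 385 CPM in LUAD, far apart (log2 fold change 1.93 ± 0.25, edgeR adjusted p = 0.00093). Its footprints, at 93.4, 193 and 214 CPM in AT2 and 421, 404, 475 and 468 CPM in LUAD, rose as well (1.40 ± 0.29, adjusted p = 0.012). Myc RNA did not separate LUAD 3 and 4 from 1 and 2, as most members did. RNA of Mxd1, a MAX partner that opposes MYC, fell by 1.23 on the log2 scale (adjusted p = 0.0041), Zbtb17 fell by 0.79 (adjusted p = 0.028), and Max did not pass (0.15, adjusted p = 0.45).

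Proliferation genes moved with the members. In RNA 17 of 19 rose and 0 fell, where 19% of all genes rose and 18% fell. Their summed RNA was 643 to 1846 CPM in AT2 and 2913 to 4464 CPM in LUAD. In footprints 6 of 19 rose and 0 fell (1049 to 3028 CPM and 3737 to 6159 CPM), where 9.47% of all genes rose and 11.8% fell. In footprints per RNA their median log2 difference was -0.78, more negative than that of the members (-0.49). There 1 of 19 was lower in LUAD, against 0.438% of all genes. Mki67 RNA stood at 28.4, 22 and 51.6 CPM in AT2 and at 91.7, 105, 64.1 and 62.1 CPM in LUAD. Its footprints stood at 179, 207 and 203 CPM in AT2 and at 412, 449, 395 and 392 CPM in LUAD. Other genes of this list were not compared library by library. Among markers of other cells, 0 of 8 fibroblast and 0 of 4 endothelial genes had a listed ORF and so were not measured, and of 8 macrophage and leukocyte genes Mrc1 and Cd14 were measured and both rose (summed RNA 6.78 to 19.4 CPM in AT2 and 150 to 200 in LUAD). Of 4 ciliated and club cell genes Tubb4b was measured, and its RNA rose (1.15; 479 to 928 CPM in AT2 and 1029 to 1895 in LUAD). The part of dividing cells or of other cell types in the differences above was not tested, and in bulk organoids fewer cells of a type and less RNA per cell cannot be told apart.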

How the data were processed

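Estimated counts and TPM per transcript were deposited by the authors for 7 footprint and 7 RNA libraries; they were made with kallisto, per the submitters' processing notes, against 118489 transcripts, version and transcript release not stated there. ORF lists give P-site counts by frame, RPKM (not used for results) and a p-value per ORF on mm10, per the file headers and the submitters' notes, which name no caller. Genes were assigned to transcripts from the ORF lists (22509 transcripts, 7266 genes, 65.03% to 70.02% of each library's counts); unlisted transcripts were left out. Summed estimated counts were rounded and tested with edgeR 4.0.16 (R 4.3.3): filterByExpr, TMM, robust quasi-likelihood fit, Benjamini-Hochberg adjustment over all genes. Footprints per RNA is the interaction of organoid type and assay over 14 libraries. The fits were tested on simulated data. All 36 members are reported by role; of other lists up to 4 genes a direction with the largest change past the test and at least 50 counts in the higher group are named. Members and lists were chosen with earlier results of these data known. Same-numbered AT2 and LUAD RNA libraries deviated together (r = 0.29, 0.23 and 0.33 across genes). So did library 1 with 2 (0.25) and AT2 3 with LUAD 4 (0.34), so numbers cannot be told apart from sets of libraries. No replicate pair agreed within sampling noise. Same-numbered footprint libraries gave r = 0.42, -0.36 and 0.34 for numbers 1 to 3, so footprint numbers did not pair throughout. Alternatives were DESeq2 1.42.0, limma 3.58.1 on log2(TPM + 1), no filter, scaling on all transcripts, annotated-ORF transcripts, the replicate block and leaving out each library; the library sets, Mettl26 and single-library alternatives of footprints per RNA were added after seeing the data. Promoters came from RefSeq (GRCm38.p6).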

Additional observations from a re-analysis of the deposited data

Results flagged for a closer look

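Heatr1 RNA in LUAD library 3, at 35.1 CPM, lay apart from the other LUAD libraries (44.2, 45.4 and 44.6 CPM). Among 68 groups of 4 libraries tested this way it was the only one; a gap of this kind arises by chance in about 5% of groups. Heatr1 RNA was higher in LUAD in every alternative run.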

How the results depend on the processing

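The count of members called in RNA (22) ranged from 13 to 27 when single libraries were left out, and stayed within 1.5 times 22 under DESeq2 (25), no filter (22), scaling on all transcripts (26), log2(TPM + 1) (25), annotated-ORF transcripts (20), the replicate block (27, of which 26 higher), library set as a term (28) and library set 1 alone (29). In footprints (3 called) it ranged from 0 to 4 without single libraries, was 2 with the replicate block, 22 with library set as a term, 21 in library set 2 alone and 1 without Mettl26; the cause was not tested. In footprints per RNA (0 called) it ranged from 0 to 3 without single samples, was 1 with the replicate block (Rrs1, -1.34, edgeR adjusted p = 0.045), 2 with library set as a term and 7 without AT2 footprint library 1 alone. Of the 22 calls in RNA and 3 in footprints, 0 turned direction in these alternatives. DESeq2 called 155 genes higher and 220 lower in footprints per RNA, against 20 and 31 by edgeR. The median of all genes moved by over 0.1 under scaling on all transcripts (RNA 0.20, footprints 0.15) and, in footprints, log2(TPM + 1) (0.61), where the members' medians were 1.18, 0.67 and 1.09. Members listed per ORF list had a mean of 12 in AT2 and 24.3 in LUAD, and 2.5 and 14.7 with at least 50 in-frame P-sites; without single lists the means ranged from 7.0 to 17.0 and from 21.5 to 26.0. Depth limits most the AT2 libraries, the shallowest of which held 3.03 and 4.12 (in 1e6 estimated counts of footprints and RNA). On listed genes after TMM scaling, AT2 footprint library 1 held 1.12, against 2.42 and 2.64 in AT2 footprint libraries 2 and 3 (in 1e6). The members had 4196 counts in it, against 25585 and 27582.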
